A study of Mus musculus with 4 samples.

Results

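Collagens were examined on 4 Affymetrix Mouse Gene 1.0 ST arrays of sorted mouse bone marrow cells. The members were every probe set whose platform annotation gave exactly 1 gene symbol made of Col, a number, the letter a and a number. This gave 46 probe sets for 44 genes, of 35556 probe sets in all. No probe set with several symbols held a collagen symbol. Col6a5 and Col6a6 each had 2 probe sets, and each of the other genes had 1. By the type of assembly their chains form, 11 genes were fibrillar, 6 were type IV genes of basement membranes, and 27 belonged to other types.

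The cells were Flt3(-) LSK cells, the Sca-1 and c-Kit positive, lineage-negative fraction without surface Flt3, in which hematopoietic stem cells are enriched. They were sorted 4 days after the last dose of pIpC, which switches on Cre under the interferon-responsive Mx1 promoter in blood cells and in other cells that respond to interferon. The 2 control arrays came from Mx1Cre-GABPa(FL/+) mice and the 2 deficient arrays from Mx1Cre-GABPa(FL/-) mice. The second allele was + in the controls and - in the deficient mice, so the genotypes already differed before pIpC. Both groups carried Mx1Cre and a floxed allele, received pIpC, were 6 to 8 weeks old and came from 4 generations of backcrossing to C57/BL6. The controls were thus not untreated wild-type mice, and nothing in the labels says whether a sample was 1 animal or a pool. P-values therefore rest only on the spread between these samples. In limma, the variance of each probe set is drawn toward a value estimated over all probe sets. Each p, SE and interval thus also reflects the spread of other probe sets.

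Gabpa, the targeted gene, read 8.43 and 7.28 on the arrays labelled control and 6.43 and 7.85 on those labelled deficient, a difference of −0.71 (SE 0.68, limma adjusted p = 0.605). The groups overlapped, since deficient replicate 2 lay above control replicate 2, so this probe set did not separate the labels. Which exons its probes cover was not examined here. Every direction below is therefore that of the arrays as labelled.

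Collagens are triple-helical proteins of the extracellular matrix, and each gene encodes 1 kind of chain. Fibrillar collagens form the cables of bone, skin and tendon, type IV forms the sheet under endothelium and epithelium, and the remaining types decorate fibrils, form beaded filaments or span membranes. In bone marrow they are made mainly by osteoblasts, reticular stromal cells and vessels, and blood stem cells meet them through integrins and other receptors.

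RefSeq promoter windows (GRCm38.p6) were found for 35 of the 44 genes, 38 windows in all. The stretches upstream of 5 genes are shown as examples. Col1a2 and Col3a1 encode chains of the main fibrils, Col4a5 and Col4a6 are a head-to-head pair of type IV genes, and Col6a2 had the largest difference of all members. Each is the part of the 250 bases before the table's start that lies outside the gene's own RefSeq span, written along the gene's strand. Capitals mark a GC box, a CCAAT box or a TATA box on either strand, and the core of the ETS factors, to which GABP belongs, was searched too. The marked matches did not overlap each other.
Col1a2: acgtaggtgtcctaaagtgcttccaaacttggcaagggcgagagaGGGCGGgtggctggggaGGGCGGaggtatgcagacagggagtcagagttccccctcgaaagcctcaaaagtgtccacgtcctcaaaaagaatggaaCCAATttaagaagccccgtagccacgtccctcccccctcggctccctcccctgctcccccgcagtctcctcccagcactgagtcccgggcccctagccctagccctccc
Col3a1: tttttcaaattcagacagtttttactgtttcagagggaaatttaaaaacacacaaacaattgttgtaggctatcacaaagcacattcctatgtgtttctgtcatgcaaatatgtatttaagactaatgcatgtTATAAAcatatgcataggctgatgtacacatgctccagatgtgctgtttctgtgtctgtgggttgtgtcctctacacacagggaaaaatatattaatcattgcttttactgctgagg
Col4a5: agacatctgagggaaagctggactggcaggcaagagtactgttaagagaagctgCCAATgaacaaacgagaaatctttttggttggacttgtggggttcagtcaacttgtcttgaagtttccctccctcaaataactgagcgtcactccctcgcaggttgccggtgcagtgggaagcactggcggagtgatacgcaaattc
Col4a6: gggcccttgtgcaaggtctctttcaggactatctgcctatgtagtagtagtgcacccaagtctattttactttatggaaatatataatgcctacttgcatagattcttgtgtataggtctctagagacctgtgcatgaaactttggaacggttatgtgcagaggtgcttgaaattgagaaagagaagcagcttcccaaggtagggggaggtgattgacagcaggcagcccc
Col6a2: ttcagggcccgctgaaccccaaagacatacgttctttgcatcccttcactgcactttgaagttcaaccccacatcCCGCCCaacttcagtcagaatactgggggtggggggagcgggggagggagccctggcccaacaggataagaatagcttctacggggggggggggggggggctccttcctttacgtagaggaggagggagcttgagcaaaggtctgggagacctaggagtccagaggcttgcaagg
Col1a2 lies at chr6:4505368-4505617 on the plus strand and Col3a1 at chr1:45311288-45311537 on the plus strand. Col4a5 lies at chrX:141475169-141475369 on the plus strand, Col4a6 at chrX:141474096-141474326 on the minus strand, and Col6a2 at chr10:76623631-76623880 on the minus strand.

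In the 250 bases before each start, the ETS core CCGGAA, searched on both strands, was in 0 of 38 collagen windows and in 12% of all 32851 windows. The GC box GGGCGG was in 22 collagen windows (57.9%, against 32.7% of all). CCAAT was in 13 (34.2%, against 33.8%). The TATA box TATAAA was in 5 (13.2%, against 12.4%). These are matches of letters in short windows and say nothing of binding in these cells.

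The collagens moved little and close together. All 46 probe sets had a higher mean on the deficient arrays, where 66.3% of all probe sets did, but the differences were small. They ran from 0.05 for a Col6a6 probe set to 0.60 for Col6a2 on the log2 scale, with a median of 0.29, or 1.22-fold. The median over all probe sets was 0.15, so the collagen median was 0.15 above it. Cyclic loess moved the median of all probe sets to −0.0045 and the collagen median to 0.13, and turned 5 of the 46 differences below 0. The median collagen level was 6.13 and 6.23 on the controls and 6.56 and 6.51 on the deficient arrays. For all probe sets the medians were 5.87, 5.91, 5.93 and 6.01 in that order. No detection calls were used, so whether a given collagen lay above background cannot be told, here or in the paragraphs below.

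No collagen passed limma's test at an adjusted p under 0.05, as for all 35556 probe sets (0%), and their adjusted p ran from 0.408 to 0.901. At an unadjusted p under 0.05, 4 of 46 were higher (8.70%, against 6.64% of all probe sets) and 0 were lower (5.25% of all). That count was 0 or 1 under each alternative tried for it, and 0 without any 1 of the 4 arrays. The groups did not overlap for 41 of the 46, all of them higher on the deficient arrays, where 38.9% of all probe sets were higher without overlap. Of all probe sets, 14% were lower without overlap and 52.9% did not overlap in either direction. The upper bound of the 95% interval lay below a log2 difference of 1 for 45 members and at 1.10 for Col6a2. That bound also lay below 1 for 26856 of all 35556 probe sets, and for 13705 of the 17776 in the collagens' level range. In a bulk sample, a change in the number of cells of a type and a change in RNA per cell cannot be told apart.

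**Figure D1:**
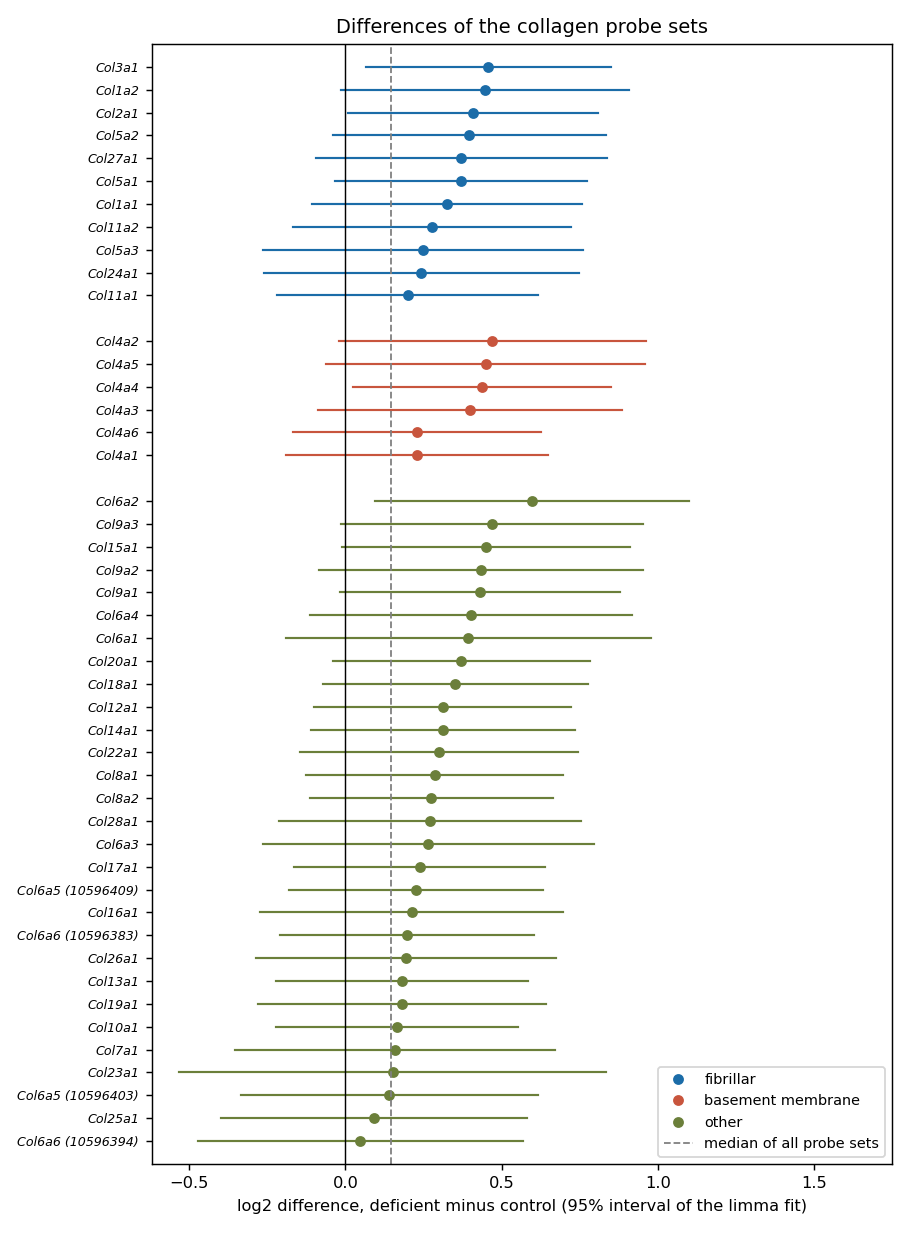
Log2 difference of each collagen probe set, deficient minus control, with the 95% interval of the limma fit, by class. All 46 points lie above 0, from 0.05 to 0.60, and 4 intervals exclude 0; the dashed line is the median of all probe sets (0.15).

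The arrays did not fall into 2 tight groups for these genes. Control replicate 1 was the lowest array for 43 of 46 collagen probe sets, against 44.0% of all probe sets. The 2 control arrays differed from each other by a median of 0.18 on the log2 scale, with control replicate 2 higher for 43 members. Over all probe sets that median was 0.069, with control replicate 2 higher for 59.7%. The deficient arrays differed by a median of 0.012, and each was higher for 24 or 22 members. Set against control replicate 2 alone, the deficient arrays were higher by medians of 0.20 and 0.24, and against control replicate 1 alone by 0.36 and 0.41. The spacing between the controls was thus close in size to the step from control replicate 2 to the deficient arrays. Part of each step was shared by the whole table. Over all probe sets the deficient arrays were higher than control replicate 2 by medians of 0.089 and 0.12. Against control replicate 1 those medians were 0.17 and 0.18.

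**Figure D2:**
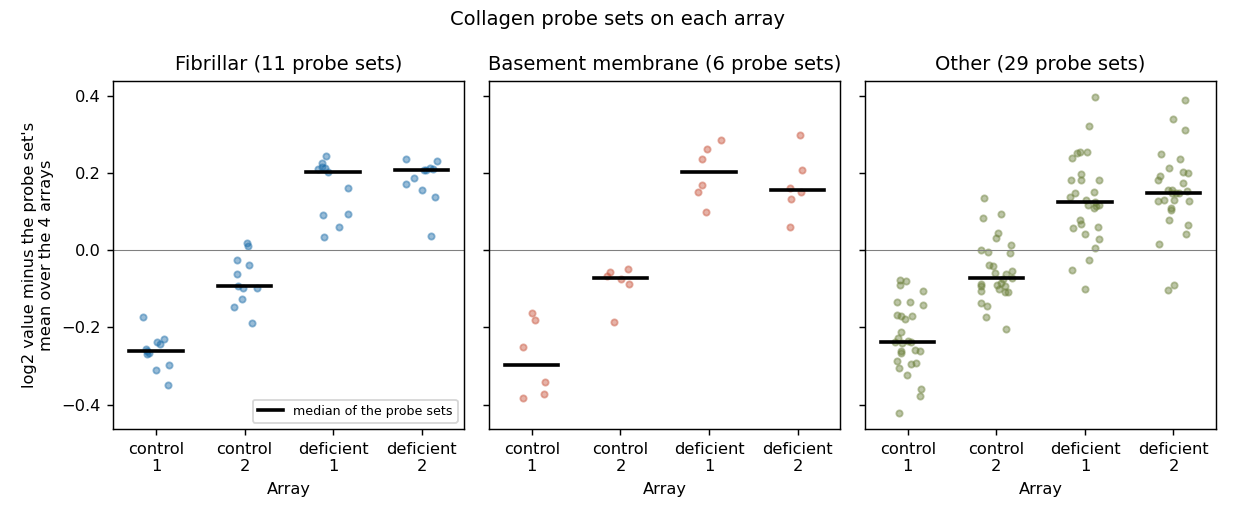
Log2 value of each collagen probe set on each array minus its own mean over the 4 arrays, in 3 panels for the fibrillar, basement membrane and other classes; bars are medians over probe sets. Control replicate 1 is lowest in each class, control replicate 2 lies between it and the deficient arrays, and the deficient arrays lie close to each other.

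The fibrillar class had 11 genes and a median difference of 0.37, with a range from 0.20 to 0.46. All 11 were higher on both deficient arrays than on both controls, and control replicate 1 was the lowest array for all 11, against 38.9% and 44.0% of all probe sets. Type I collagen, the main fibril of bone and skin, is made of chains from Col1a1 and Col1a2. Col1a1 had control values of 6.36 and 6.50 and deficient values of 6.69 and 6.83, a difference of 0.32 (SE 0.15, limma adjusted p = 0.442). Col1a2 read 6.48 and 6.73 in control and 7.04 and 7.06 in deficient samples, a difference of 0.45 (SE 0.16, adjusted p = 0.421). Neither chain gene passed the test, and in both the deficient arrays lay above the higher control.

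Col3a1 encodes the single chain of type III collagen, the reticular fiber of marrow and vessel walls. It read 6.01 and 6.09 in control and 6.52 and 6.49 in deficient samples, a difference of 0.46 (SE 0.14, unadjusted p = 0.032 in limma, adjusted p = 0.408). It was the largest difference of the fibrillar class, with group means of 6.05 ± 0.055 (SD, n = 2) and 6.51 ± 0.022. Type V collagen seeds the fibrils of types I and III. Its chain genes Col5a1, Col5a2 and Col5a3 differed by 0.37 (SE 0.14), 0.40 (SE 0.15) and 0.25 (SE 0.18). Col5a1 read 6.54 and 6.65 in control and 6.94 and 6.99 in deficient samples. Col5a2, the direct neighbor of Col3a1 among protein-coding genes in RefSeq (GRCm38.p6), read 5.14 and 5.34 in control and 5.66 and 5.61 in deficient samples. In Col5a1 and Col5a2 the groups stood apart by more than either group's own spacing.

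The cartilage fibril genes lay in the same range as those of bone and skin. Col2a1, the main fibril of cartilage, read 6.63 and 6.74 in control and 7.09 and 7.10 in deficient samples, a difference of 0.41 (SE 0.14, unadjusted p = 0.047 in limma, adjusted p = 0.417). Its partners Col11a1 and Col11a2 differed by 0.20 (SE 0.15) and 0.28 (SE 0.16), with Col11a1 the smallest of the class at 5.90 and 6.04 against 6.13 and 6.21. The fibrillar genes Col24a1 and Col27a1 differed by 0.24 (SE 0.18) and 0.37 (SE 0.16). Without control replicate 1 the class median was 0.26, and cyclic loess gave 0.19.

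The type IV class had 6 genes and a median difference of 0.42, with a range from 0.23 to 0.47. Its genes form 3 head-to-head pairs in the genome, and in each pair the genes are direct neighbors in RefSeq. Chains of Col4a1 and Col4a2 make the network found under nearly all endothelium. Col4a1 read 6.48 and 6.61 in control and 6.83 and 6.72 in deficient samples, a difference of 0.23 (SE 0.15, adjusted p = 0.50). Col4a2 read 6.29 and 6.59 in control and 6.94 and 6.88 in deficient samples, a difference of 0.47 (SE 0.17, adjusted p = 0.421). The pair thus had the smallest and the largest difference of the class, with intervals that overlapped.

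Col4a3 and Col4a4, chains of the kidney filter, differed by 0.40 (SE 0.17) and 0.44 (SE 0.15). Col4a4 was the only type IV gene with an unadjusted p under 0.05 (0.043 in limma, adjusted p = 0.413), at 6.14 and 6.20 on the controls and 6.67 and 6.54 on the deficient arrays. The X-linked pair Col4a5 and Col4a6 differed by 0.45 (SE 0.18) and 0.23 (SE 0.14). All 6 type IV genes had both deficient arrays above both controls, as did 38.9% of all probe sets and 45.3% of those in the collagens' level range. Without control replicate 1 the class median was 0.28.

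The other types held 29 probe sets for 27 genes and had a median difference of 0.27. Here 24 of 29 were higher without overlap (38.9% of all probe sets), and the range, from 0.05 to 0.60, was the widest of the classes. Type VI collagen forms beaded filaments around cells, and its chains from Col6a1, Col6a2 and Col6a3 assemble together. Col6a2 read 6.30 and 6.54 in control and 7.11 and 6.92 in deficient samples, a difference of 0.60 (SE 0.18, unadjusted p = 0.030 in limma, adjusted p = 0.408). Its neighbor Col6a1 read 6.61 and 6.80 in control and 6.90 and 7.29 in deficient samples, a difference of 0.39 (SE 0.21). Col6a3 differed by 0.27 (SE 0.19), and deficient replicate 2 at 6.05 lay close to control replicate 2 at 6.04. The 3 partner genes kept both deficient arrays above both controls, with steps of different size and overlapping intervals.

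Col6a4, Col6a5 and Col6a6 lie side by side in the genome and encode further type VI chains. Col6a4 differed by 0.40 (SE 0.18). The Col6a5 probe sets 10596409 and 10596403 differed by 0.23 (SE 0.14) and 0.14 (SE 0.17). The Col6a6 probe sets 10596383 and 10596394 differed by 0.20 (SE 0.14) and 0.05 (SE 0.18), and the second read 5.36 and 5.60 in control and 5.40 and 5.65 in deficient samples. In that probe set the replicates of each group lay farther apart than the groups.

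Among fibril-associated collagens, which sit on the surface of fibrils, all 9 genes were higher without overlap (38.9% of all probe sets), with a median of 0.31. The type IX chains of cartilage, Col9a1, Col9a2 and Col9a3, differed by 0.43 (SE 0.16), 0.44 (SE 0.18) and 0.47 (SE 0.17). Col12a1 and Col14a1, which bind type I fibrils in dense tissue, both differed by 0.31 (SE 0.15 for each). Col20a1 and Col22a1 differed by 0.37 (SE 0.15) and 0.30 (SE 0.16), and Col16a1 and Col19a1 by 0.21 (SE 0.17) and 0.18 (SE 0.16). The type IX genes thus had larger differences than Col12a1 and Col14a1, with overlapping 95% intervals, and no test between them was made.

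Col15a1 and Col18a1 encode multiplexins of vascular basement membranes, and the end of the Col18a1 product is released as endostatin. Col15a1 read 5.87 and 6.03 in control and 6.50 and 6.30 in deficient samples, a difference of 0.45 (SE 0.16, adjusted p = 0.421). Col18a1 read 5.93 and 6.10 in control and 6.39 and 6.35 in deficient samples, a difference of 0.35 (SE 0.15, adjusted p = 0.430). Both were higher on each deficient array than on each control. The network collagens Col8a1, Col8a2 and Col10a1, the last a marker of hypertrophic cartilage, differed by 0.29 (SE 0.15), 0.28 (SE 0.14) and 0.17 (SE 0.14).

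The transmembrane collagens had the smallest median of the types described, 0.17. Col13a1, Col17a1, Col23a1 and Col25a1 differed by 0.18 (SE 0.14), 0.24 (SE 0.14), 0.15 (SE 0.24) and 0.09 (SE 0.17). In Col23a1 and Col25a1 the groups overlapped. Col7a1, the anchoring fibril of skin, also overlapped between groups (difference 0.16, SE 0.18), while Col26a1 and Col28a1 differed by 0.19 (SE 0.17) and 0.27 (SE 0.17).

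Set side by side, the fibrillar and type IV classes had higher medians (0.37 and 0.42) than the other types (0.27), and the ranges of the 3 classes overlapped. No test of the classes against each other was made. The other types had the lowest median under each alternative, from 0.090 with cyclic loess to 0.36 without control replicate 2. The order of the other 2 classes turned without deficient replicate 1 (0.37 fibrillar, 0.36 type IV) and when each difference was set against probe sets of like level (0.23 and 0.20).

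**Figure D3:**
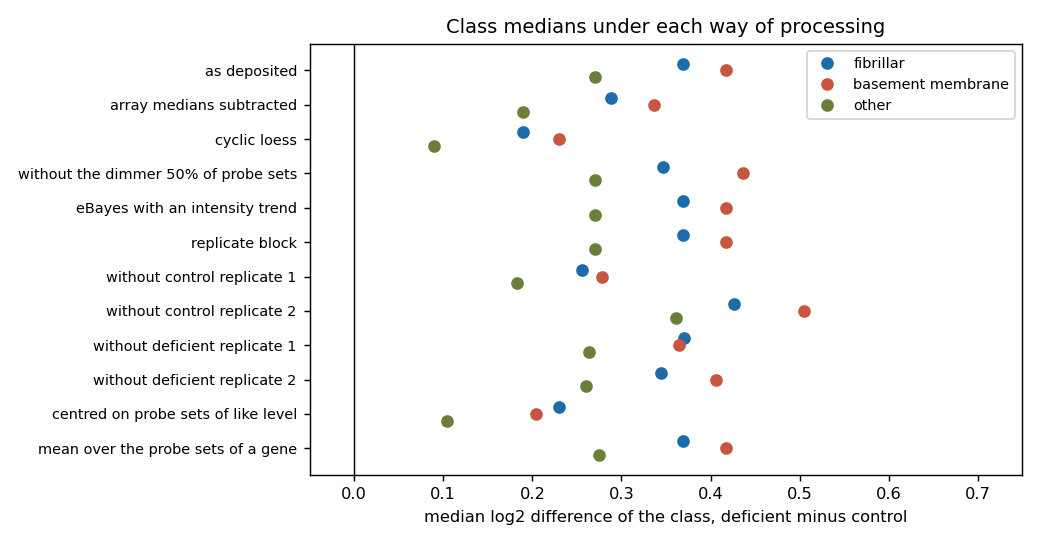
Median log2 difference of each collagen class, deficient minus control, with the values as deposited and under each alternative. The medians stay above 0 in each setting shown, and lie lowest with cyclic loess for the other types (0.090).

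Over all probe sets, the shift varied with where on the intensity scale a probe set lay. By mean level over the 4 arrays, the probe sets of the table were cut into 4 parts of 8889 each, with median differences of 0.14, 0.22, 0.16 and −0.0029 from the dimmest to the brightest. Collagens fell almost wholly into the middle, with 0, 11, 34 and 1 in those parts. The 17776 probe sets within the collagens' own range of mean level, 4.81 to 7.25, had a median of 0.19, of which 70.9% were above 0 and 45.3% were higher without overlap. With each difference set against the median of its level, in 20 bins chosen after seeing the data, the collagen median was 0.15 and 40 of 46 stayed above 0. The spread of collagen differences was narrow, with an SD of 0.12 against 0.61 among probe sets of that level range. In that range 7.78% of probe sets differed by more than 1 in either direction, and 0 collagens did.

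**Figure D4:**
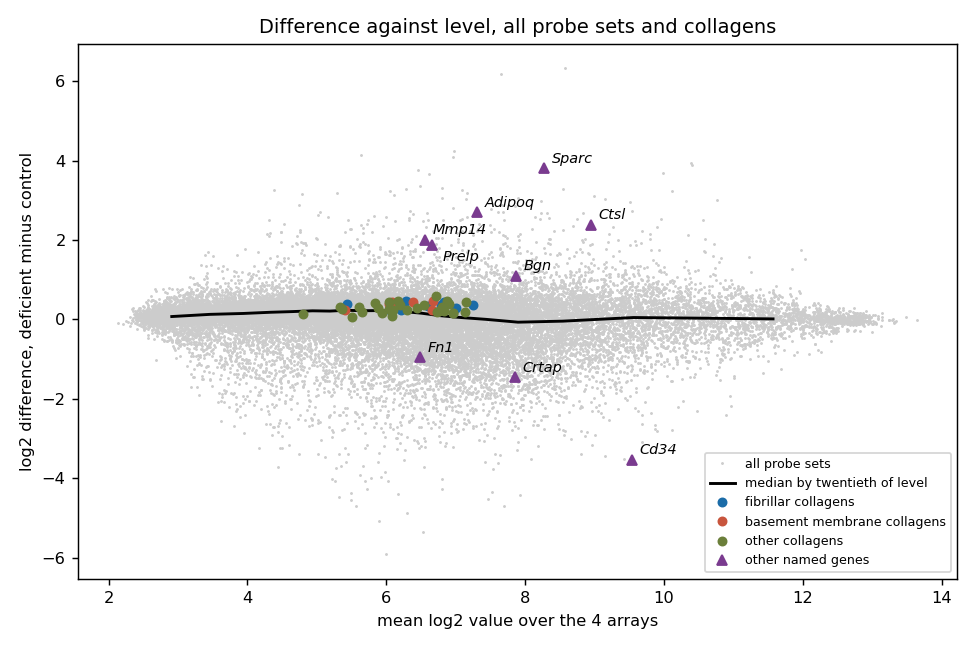
Log2 difference, deficient minus control, against mean log2 value over the 4 arrays for all probe sets (grey), with their median in 20 bins of level (line), the collagens (circles) and other named genes (triangles). Collagens sit in a narrow band between 0.05 and 0.60, 40 of 46 above the line, far below Sparc at 3.80.

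Genes that make, bind or degrade collagen were read beside them, and some lists held single genes far outside the collagens' range. Of 21 measured enzymes and chaperones that modify collagen chains in the endoplasmic reticulum, 0 were higher and 3 lower at an unadjusted p under 0.05 (6.64% and 5.25% of all probe sets), and the median was 0.019. The median fell below 0 under each change of scaling and without any 1 array. Crtap, a partner of prolyl 3-hydroxylation, read 8.53 and 8.64 in control and 7.53 and 6.72 in deficient samples, a difference of −1.46 (SE 0.33, adjusted p = 0.367). Sec23a, a coat protein of vesicles that export procollagen, differed by −0.69 (SE 0.23), and P4ha1, a catalytic subunit of prolyl 4-hydroxylase, by −0.84 (SE 0.29). Colgalt1, which adds galactose to hydroxylysine, and P3h3 differed by −0.52 (SE 0.19) and −0.54 (SE 0.23). None of these 5, named for the smallest p, passed the adjusted threshold. Over the list, 7 of 21 were lower without overlap and 4 were higher, against 14% and 38.9% of all probe sets. The 4 were P3h4, Creb3l1, P4ha2 and Fkbp14, named after their values were seen.

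Of 11 genes for procollagen processing and cross-linking, 0 were past an unadjusted p of 0.05 in either direction (11.9% of all probe sets), and the median was 0.26. Lox, the enzyme that cross-links collagen and elastin, differed by 0.29 (SE 0.14). The proteinases Tll1 and Adamts14, which trim procollagen ends, differed by 0.27 (SE 0.15) and 0.26 (SE 0.15). The proteinase Tll2, listed with them, differed by 0.31 (SE 0.18). Their relative Adamts3 read 6.74 and 8.04 in control and 6.71 and 6.35 in deficient samples, a difference of −0.86 (SE 0.51) in which control replicate 2 stood above the other 3 arrays.

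Fibril-binding proteins held the widest spread. Of 12 genes, 2 were higher and 0 lower at an unadjusted p under 0.05 (6.64% and 5.25% of all probe sets), with a median of 0.22. Sparc, a collagen-binding glycoprotein of bone and stroma, read 6.19 and 6.56 in control and 10.38 and 9.98 in deficient samples, a difference of 3.80 (SE 0.24, adjusted p = 0.169). Prelp, a leucine-rich proteoglycan that anchors collagen to basement membranes, read 5.67 and 5.76 in control and 8.42 and 6.77 in deficient samples (difference 1.88, SE 0.62). Bgn, biglycan, differed by 1.10 (SE 0.41), Ogn, osteoglycin, by 0.37 (SE 0.17) and Fn1, fibronectin, by −0.95 (SE 0.37). No fibrillar collagen differed by more than 0.46, so Sparc stood far outside their range.

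Basement membrane partners of type IV collagen lay close to the collagens themselves. Of 15 genes, 3 were higher and 0 lower at an unadjusted p under 0.05 (6.64% and 5.25% of all probe sets), and the median was 0.30. Nid1, the nidogen that links laminin to type IV collagen, differed by 0.55 (SE 0.15, adjusted p = 0.400), and Hspg2, perlecan, by 0.60 (SE 0.19). The laminin chains Lama3, Lamb3 and Lama2 differed by 0.46 (SE 0.15), 0.35 (SE 0.15) and 0.32 (SE 0.16). None passed the adjusted threshold.

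Among 10 receptors for collagen, 1 was higher and 2 lower at an unadjusted p under 0.05 (6.64% and 5.25% of all probe sets), with a median of 0.053 that turned below 0 under each change of scaling. Adgrg1, an adhesion receptor of stem cells that binds type III collagen, differed by −2.06 (SE 0.15, adjusted p = 0.173) and Lair1, an inhibitory receptor of leukocytes, by −0.72 (SE 0.24). Itga10, a collagen-binding integrin of cartilage, differed by 0.61 (SE 0.17), and the kinase receptors Ddr1 and Ddr2 by 0.36 (SE 0.17) and 0.43 (SE 0.16). None of the 10 passed the adjusted threshold. The groups did not overlap for 7 of the 10, against 52.9% of all probe sets.

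Of 13 degrading enzymes and their inhibitors, 3 were higher and 0 lower at an unadjusted p under 0.05 (6.64% and 5.25% of all probe sets), with a median of 0.35. Mmp14, a membrane-bound collagenase, read 5.50 and 5.63 in control and 7.64 and 7.49 in deficient samples, a difference of 2.001 (SE 0.15, adjusted p = 0.173). Ctsl, cathepsin L of lysosomes, read 7.91 and 7.61 in control and 10.75 and 9.55 in deficient samples (difference 2.39, SE 0.47). Mmp9, a gelatinase, differed by 0.62 (SE 0.15), Timp4 by 0.39 (SE 0.14) and Mmp16 by 0.35 (SE 0.15). Mmp14 and Ctsl lay outside the range of the collagens, and neither passed the adjusted threshold.

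**Figure D5:**
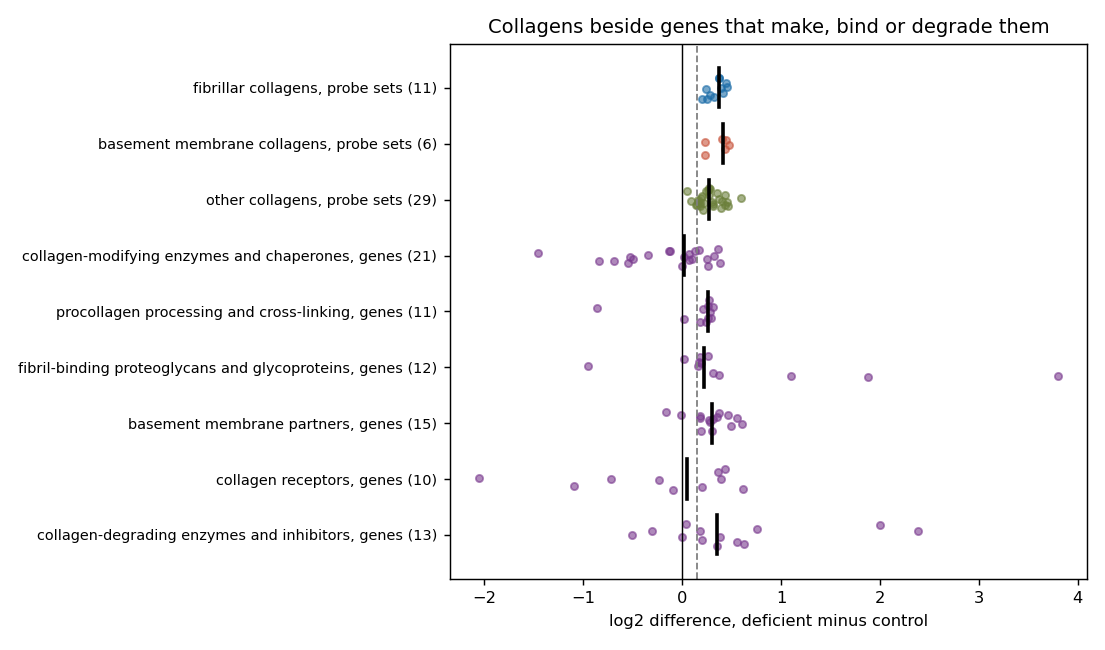
Log2 differences, deficient minus control, of the 3 collagen classes and of 6 lists of genes that make, bind or degrade collagen; each point is a probe set or gene, bars are medians and the dashed line is the median of all probe sets. The collagens span 0.05 to 0.60, while single members of the other lists reach 3.80 (Sparc) and −2.06 (Adgrg1).

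Markers of other cells were measured on the same arrays, and their part in the collagen differences was not tested. At an unadjusted p under 0.05, the threshold of each marker count here, 6.64% of all probe sets were higher and 5.25% lower. Of the sorting and stem cell markers, 7 of 9 were lower at an unadjusted p under 0.05, with mean log2 levels over the list of 8.56 and 8.30 on the controls and 6.40 and 6.72 on the deficient arrays. By smallest p, Cd34 differed by −3.54 (SE 0.22), Flt3 by −3.03 (SE 0.35), Meis1 by −3.01 (SE 0.39) and Kit by −2.11 (SE 0.32). Flt3 is thus 1 of the 7, although the gate took cells without surface Flt3, so it is no marker of the sorted cells. It read 8.43 and 9.26 in control and 5.68 and 5.95 in deficient samples. No detection calls were used, so a low level cannot be told from background. Macrophage markers were higher for 5 of 12 (means 6.04 and 6.19 against 7.62 and 6.88), erythroid markers for 7 of 9 (6.53 and 6.39 against 8.12 and 8.86) and mesenchymal stromal markers for 6 of 12 (5.30 and 5.47 against 6.11 and 5.89). Endothelial markers were higher for 4 and lower for 1 of 12 (6.27 and 6.20 against 7.02 and 6.56). The lower gene, Tek, is also 1 of the 7 lower genes of the sorting and stem cell list. Osteoblast markers passed that threshold for 0 of 7 genes (means 5.10 and 5.23 against 5.27 and 5.48) and chondrocyte markers for 0 of 8 (5.31 and 5.49 against 5.72 and 5.65). Pericyte markers were higher for 1 of 7 (5.63 and 5.83 against 6.25 and 6.13) and fibroblast markers for 1 of 8 (5.97 and 6.10 against 6.21 and 6.31).

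The stromal genes with the smallest p were Cxcl12, Lepr, Adipoq, Ebf3 and Foxc1. Of the 12 stromal genes, 11 had a difference above 0. Pdgfrb went the other way, at 6.40 and 7.24 in control and 6.34 and 6.29 in deficient samples. Cxcl12, the chemokine of reticular niche cells, read 6.16 and 6.56 in control and 8.18 and 7.46 in deficient samples. Adipoq, the adipokine that also marks these cells, read 6.04 and 5.88 in control and 9.67 and 7.64 in deficient samples. The order of the 2 deficient replicates was mixed in this list, since Ebf3, a transcription factor of these cells, read 6.04 and 6.19 on them and Foxc1 read 5.31 and 5.51.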

How the data were processed

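The authors deposited RMA values on the log2 scale for each probe set; RMA and Partek are named, without versions, per the submitters' processing notes. The authors' build and annotation: not given in the sources used here. Values ran from 1.98 to 13.7, and no further normalization was applied. All 4 value columns matched a sample. The number of arrays limits the precision. Amplification started from 800 pg to 50 ng of RNA, per the labels.

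Of the 35556 probe sets, 21789 had 1 gene symbol, 1621 several and 12146 none. For lists, symbols were updated by Entrez number through RefSeq (GRCm38.p6), and the probe set with the highest mean stood for a gene. The groups were compared with limma 3.58.1 (lmFit, eBayes, genotype only) in R 4.3.3, with Benjamini-Hochberg adjustment over all probe sets and a threshold of 0.05. Differences are deficient minus control, and intervals are 95%, unadjusted. With 2 arrays against 2, an exact permutation test cannot go below a two-sided p of 0.333, so none is given. Lists are described by counts and medians, with no set test. In 20 simulations of 35556 probe sets, 200 were changed in each and the noise was independent between probe sets. There limma at an adjusted p under 0.05 called 0% of those changed by a log2 of 1 and 40.0% at 4. At an unadjusted p it called 78.4% and 97.8%. The share changed in the real data is not known, so these percentages need not hold for them.

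Members with an unadjusted p under 0.05, the largest and smallest difference of each class and 11 widely studied chains are given on each array, as are other values where they show a group's overlap. Of each list up to 5 genes by p are named. A few others were named for their direction or because lists shared them. Members and lists were chosen with earlier results of these data known. Alternatives were median subtraction, cyclic loess, a filter of the dimmer 50%, an intensity trend, a replicate block, leaving out each array, a p under 0.01 and the mean over a gene's probe sets. Figures used matplotlib 3.10.9 in Python 3.11.15.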

Additional observations from a re-analysis of the deposited data

How the results depend on the processing

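All 46 collagen differences stayed above 0 with an intensity trend, with the replicate block and without control replicate 2, as did the 35 left without the dimmer 50% of probe sets. The number above 0 was 45 with array medians subtracted and 41 with cyclic loess. Leaving out 1 array gave 43 to 46, with the lowest count without control replicate 1. Setting each probe set against others of like level, chosen after seeing the data, gave 40. No setting gave a collagen past an adjusted p of 0.05. The 4 collagens higher at an unadjusted p under 0.05 became 1 with array medians subtracted, 1 with cyclic loess, 1 without the dimmer 50%, 0 with an intensity trend, 0 at a p under 0.01, and 0 without any 1 array. The same count was 0 with the replicate block, for which the labels give only a shared number (the correlation of same-numbered deviations was −0.088). The cause of these changes was not tested, and some of these settings also leave fewer arrays or degrees of freedom.

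With array medians subtracted the collagen median was 0.21, that of the other types 0.19, of basement membrane partners 0.22 and of degrading enzymes 0.27. With cyclic loess the medians were 0.13 for all collagens, 0.19 fibrillar, 0.23 type IV, 0.090 other types, 0.038 processing, 0.027 fibril-binding, 0.13 basement membrane partners and 0.13 degrading enzymes. Against probe sets of like level they were 0.15, 0.23, 0.20 and 0.10 for all collagens and the 3 classes. Without the dimmer 50% the median was 0.097 for processing, 1.10 for fibril-binding and 0.30 for degrading enzymes, with fewer genes. Modifying enzymes turned to −0.062, −0.17 and −0.13 and receptors to −0.028, −0.16 and −0.90 under median subtraction, cyclic loess and the filter.

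With 1 array left out, the median ran from 0.23 to 0.39 for all collagens, 0.26 to 0.43 fibrillar, 0.28 to 0.50 type IV and 0.18 to 0.36 other types, lowest without control replicate 1 and highest without control replicate 2. It ran from −0.087 to −0.0095 for modifying enzymes, 0.14 to 0.34 processing, 0.16 to 0.30 fibril-binding, 0.21 to 0.40 basement membrane partners, −0.031 to 0.14 receptors and 0.23 to 0.43 degrading enzymes.

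Single members turned below 0 as follows. Cyclic loess gave −0.036 for Col10a1, −0.036 for Col19a1, −0.098 for Col25a1, −0.068 for Col6a5 (10596403) and −0.17 for Col6a6 (10596394), the last also −0.033 with array medians subtracted. Against probe sets of like level the values were −0.055 for Col10a1, −0.021 for Col11a1, −0.035 for Col19a1, −0.13 for Col25a1, −0.074 for Col6a5 (10596403) and −0.18 for Col6a6 (10596394). With 1 array left out, Col23a1 ran from −0.059 to 0.36 (below 0 without control replicate 1 or deficient replicate 1), Col25a1 from −0.044 to 0.23 (below 0 without deficient replicate 1), Col7a1 from −0.0040 to 0.32 (below 0 without control replicate 1) and Col6a6 (10596394) from −0.076 to 0.17 (below 0 without control replicate 1 or deficient replicate 2).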
